A study of Mus musculus with 2 samples.

Results

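The membrane-bound mucins described here are 6 named genes, Muc1, Muc4, Muc13, Muc15, Muc16 and Muc20, of the 32285 genes counted in a single-cell RNA sequencing study of the mouse esophageal epithelium. The genes were taken by name and followed across the cell states of the p63-KO library and the layers of the WT library. The p63-KO library is labelled with the genotype p63-CreER/p63-CreER, and the WT library, from littermates, with p63-CreER, which names the targeted allele once. Both came from C57BL/6 mice at E18.5, shortly before birth. After the muscle layer had been stripped, the epithelial sheet was loosened with dispase and taken apart with trypsin, and transcripts were counted at their 3' ends in droplets. There was 1 library per genotype, so no test between genotypes could be made, and every interval below is a 95% interval for counting error only.

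Membrane-bound mucins are transmembrane proteins whose long extracellular domains are densely covered with O-linked sugars. They form the glycocalyx on the apical side of wet epithelia, where they lubricate and shield the surface, while their short cytoplasmic tails can signal and their extracellular parts can be shed. The transcription factor p63 is needed for the basal cells of stratified epithelia, and an esophagus without it keeps a simple epithelium with ciliated and secretory cells in place of stratified squamous layers.

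Of 2821 p63-KO barcodes with 86504624 UMIs (unique molecular identifiers, counted transcripts), 2375 cells were kept, and of 6034 WT barcodes with 76472445 UMIs, 5519. Trp63, the gene of p63, had 118 CPM in p63-KO and 303 CPM in WT epithelial-like cells, but which part of it the allele interrupts is not given, so 3' counts do not check the labels. The libraries shared 8 barcodes, 5 of them among the kept cells. Cells named epithelial-like from marker genes numbered 1680 in p63-KO, 70.7% of those kept, against 5372 in WT, 97.3%. Their median depth was 25228.5 UMIs in p63-KO and 11039.5 UMIs in WT. The p63-KO library also held 514 fibroblast-like cells, whose mucin counts are given beside the epithelial ones as a measure of free RNA in that library, except for Muc13, which was higher in them. WT had only 10 fibroblast-like cells, with 0 UMIs of any member among 48819, so free RNA in WT was not measured. Summed fibroblast markers, none of the 7 at 0 in either library, reached 563 CPM (counts per 1000000 UMIs) in p63-KO epithelial-like cells and 50.7 CPM in WT ones, and their part in the results was not tested. Basal markers summed to 151 CPM in p63-KO and 1781 CPM in WT epithelial-like cells, and mucous secretory markers to 2859 CPM and 6.88 CPM.

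In the summed epithelial-like cells, 4 of the 5 measured membrane-bound mucins exceeded WT by 2-fold or more in p63-KO, beside 15.1% of all 11774 measured genes. Muc15 was the 1 measured member at least 2-fold lower, beside 8.82% of all genes. A gene was measured at 5 CPM or more in either library, and Muc13 did not reach that level. The median log2 ratio of the 5 measured members, taken with 1 CPM added to each library, was 1.91, beside -0.03 over all measured genes. Such sums mix the number of cells that hold a transcript with the amount per cell, and the cell states below separate these in part.

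Muc1, whose cytoplasmic tail binds receptor tyrosine kinases and catenins, had 16134 UMIs or 224 CPM in p63-KO, against 124 UMIs or 1.81 CPM in WT. The fold was 124 (interval 104 to 149), and by log2 ratio (6.33) Muc1 stood 15th from the top of the 11774 measured genes. The p63-KO fibroblast-like cells had 2.97 CPM (1.73 to 4.75) from 17 Muc1 UMIs, a level that does not measure free RNA in WT. After each cell had been thinned to 2000 UMIs, Muc1 was found in 31.4% of p63-KO and 0.227% of WT epithelial-like cells, and in 0.786% of p63-KO fibroblast-like cells. Thinning left out 24 p63-KO and 90 WT cells of lower depth. At full depth the shares were 84.0% in p63-KO and 1.94% in WT.

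Muc16, a very long mucin of the ocular surface, airway and mesothelium, had 43245 UMIs or 601 CPM in p63-KO, against 1235 UMIs or 18.0 CPM in WT. The fold was 33.4 (31.5 to 35.3) and the log2 ratio of 4.99 was the 57th from the top. Thinned, it was found in 43.5% of p63-KO and 1.86% of WT epithelial-like cells, and in 1.77% of p63-KO fibroblast-like cells. Mesothelial markers summed to 531 CPM in p63-KO and 76.9 CPM in WT epithelial-like cells, with 0 of 4 markers at 0 in p63-KO and 1 of 4 in WT. Most of that sum was Msln, at 522 CPM in p63-KO and 63.6 CPM in WT, while Upk3b had 8.84 CPM and 13.3 CPM. No cells were named mesothelial in either library, and Msln and Upk3b were among the leading genes of the WT superficial squamous-like state described below. The part of these markers in the Muc16 difference was not tested.

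Muc4, which binds the receptor ErbB2 through its EGF-like domains, was the member most widely found in WT. It had 322 CPM (318 to 326) in p63-KO and 85.2 CPM (83.1 to 87.4) in WT, a fold of 3.78 (3.67 to 3.89). Thinned cells held it in 37.3% of p63-KO and 11.0% of WT epithelial-like cells, against 1.57% of p63-KO fibroblast-like cells. Muc20, known to bind the receptor Met and dampen its signal in human kidney cells, had 24.6 CPM (23.5 to 25.8) in p63-KO and 7.04 CPM (6.43 to 7.70) in WT, a fold of 3.50 (3.16 to 3.88). Its thinned shares were 4.53% in p63-KO and 0.663% in WT, against 0.393% of p63-KO fibroblast-like cells. The log2 ratios of Muc4 (1.91) and Muc20 (1.67) stood 787th and 930th from the top, well inside the share of all genes that were at least 2-fold higher.

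Muc15, a mucin first described in the milk fat globule membrane, ran the other way. It gave 13 UMIs in all p63-KO epithelial-like cells, 0.181 CPM (0.0962 to 0.309), against 531 UMIs or 7.74 CPM (7.099 to 8.43) in WT. It was 42.9-fold lower (24.8 to 81.0) in p63-KO, and its log2 ratio of -2.89 stood 11640th of 11774 from the top. The p63-KO level was close to that of the fibroblast-like cells, 0.175 CPM from 1 UMI. No thinned p63-KO epithelial-like cell of 1656 held Muc15, which allows a share of up to 0.223%, while 1.61% of thinned WT cells did. Muc13, a mucin of the intestinal surface, gave 31 UMIs in p63-KO and 16 UMIs in WT, 0.431 CPM (0.293 to 0.612) and 0.233 CPM (0.133 to 0.379). The p63-KO fibroblast-like cells had more, 1.75 CPM (0.837 to 3.21) from 10 UMIs, so they give no background for Muc13.

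**Figure D1:**
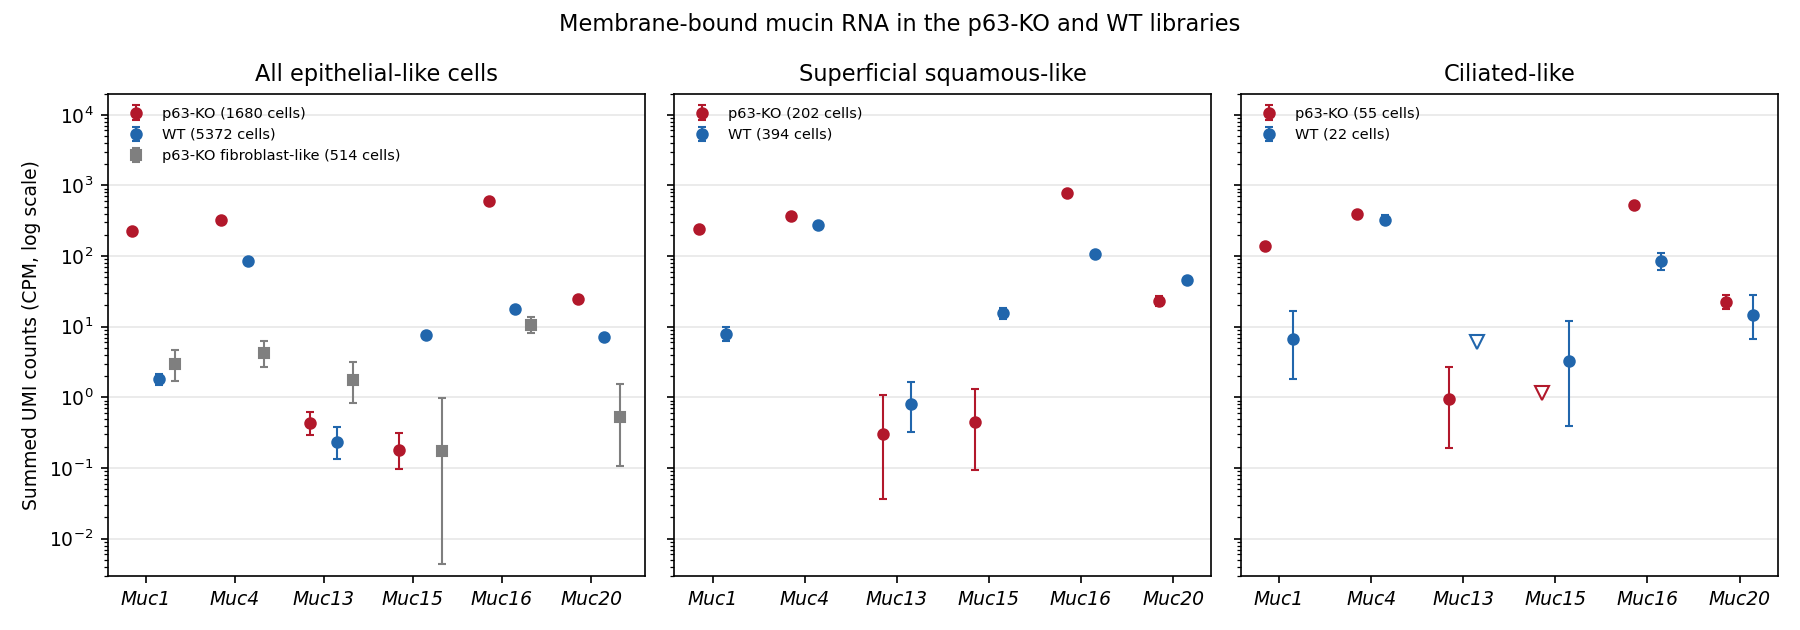
Summed UMI counts of each membrane-bound mucin in CPM on a log axis, in all epithelial-like, superficial squamous-like and ciliated-like cells of the p63-KO (red, left of each pair) and WT (blue) libraries; grey squares are p63-KO fibroblast-like cells. Bars are 95% Poisson intervals, many smaller than the points, and open triangles mark the upper limit where no UMI was found. Muc1 stands at 224 CPM in p63-KO and 1.81 CPM in WT epithelial-like cells, and Muc15 at 0.181 CPM and 7.74 CPM.

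Counts per cell showed Muc1, Muc4 and Muc16 in most p63-KO epithelial-like cells. The median p63-KO epithelial-like cell held 6 Muc1, 8 Muc4 and 10 Muc16 UMIs at full depth, and the upper quartile 15, 22 and 38 UMIs. In WT the median was 0 UMIs for each of the 6 genes, and the upper quartile was 1 UMI for Muc4 and 0 for the others. At least 5 UMIs of Muc16 were found in 59.0% of p63-KO cells and 1.60% of WT cells, and of Muc4 in 63.2% and 7.32%. These counts were not adjusted for depth, whose median was 25228.5 UMIs in p63-KO and 11039.5 UMIs in WT. The 10% of p63-KO cells with the most UMIs of a gene held 32.9% of the Muc1 and 45.5% of the Muc16 UMIs, likewise without adjustment for depth. The highest count in 1 cell was 266 Muc16 UMIs in p63-KO and 33 in WT.

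The loci do not form a cluster, apart from Muc4 and Muc20, and are given here on mm10. Muc1 lies on chr3:89229057-89233381 on the plus strand and has 7 exons in its longest coding transcript. Muc15 lies on chr2:110721340-110739527 on the plus strand, wholly inside Ano3 on the opposite strand, and Muc16 on chr9:18495455-18674530 on the minus strand with 78 exons. Muc4 (chr16:32735886-32782391, plus strand) and Muc20 (chr16:32777419-32797435, minus strand) overlap tail to tail by 4973 bases, of which 627 are exonic in both. Whether reads were counted by strand is not given in the sources used here, so reads from these shared bases could have been assigned to either gene and the values of Muc4 and Muc20 carry that uncertainty. Muc13 lies further along the same chromosome, on chr16:33794037-33819934 on the plus strand.

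Promoter sequences matched 5 of the 6 members, and 4 are printed because these genes were higher in p63-KO. They come from the RefSeq annotation of GRCm38.p6, run 5' to 3' on the strand of the gene from 250 bases before the start to 50 bases after it, and capitals mark matched motifs. Searched on both strands were the TATA box TATAAA (in 13.6% of all 32851 promoters of this length), the forkhead motif TGTTTAC (3.65%), the ETS motif GGAAGT (23.8%), the STAT motif TTCNNNGAA (8.3%) and the p53 family motif, a pair of CATG half-sites 6 bases apart (0.712%).
Muc1 (chr3:89228806-89229105, plus strand): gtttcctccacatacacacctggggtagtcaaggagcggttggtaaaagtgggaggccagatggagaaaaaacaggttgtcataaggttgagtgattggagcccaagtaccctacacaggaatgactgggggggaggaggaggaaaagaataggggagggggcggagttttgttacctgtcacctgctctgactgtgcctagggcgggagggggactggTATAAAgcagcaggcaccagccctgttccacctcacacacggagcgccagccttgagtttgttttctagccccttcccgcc
Muc4 (chr16:32735636-32735935, plus strand): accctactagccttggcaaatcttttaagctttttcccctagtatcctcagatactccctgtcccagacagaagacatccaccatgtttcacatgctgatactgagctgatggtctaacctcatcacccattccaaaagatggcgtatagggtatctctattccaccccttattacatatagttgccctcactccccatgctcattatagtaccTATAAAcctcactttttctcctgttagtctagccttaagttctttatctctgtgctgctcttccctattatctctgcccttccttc
Muc16 (chr9:18674554-18674853, minus strand): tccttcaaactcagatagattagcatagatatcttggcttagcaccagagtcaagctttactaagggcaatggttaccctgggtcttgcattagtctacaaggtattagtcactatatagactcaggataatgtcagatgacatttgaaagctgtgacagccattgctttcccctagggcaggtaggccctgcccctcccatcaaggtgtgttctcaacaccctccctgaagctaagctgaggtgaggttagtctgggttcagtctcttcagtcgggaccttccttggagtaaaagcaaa
Muc20 (chr16:32797386-32797685, minus strand): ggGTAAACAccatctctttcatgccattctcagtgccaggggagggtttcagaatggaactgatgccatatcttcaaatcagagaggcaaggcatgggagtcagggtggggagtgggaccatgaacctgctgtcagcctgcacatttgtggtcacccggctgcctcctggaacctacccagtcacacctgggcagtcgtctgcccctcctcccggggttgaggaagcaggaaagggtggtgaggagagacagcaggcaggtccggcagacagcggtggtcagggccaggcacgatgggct

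The Muc1 and Muc4 promoters each hold a TATA box, beginning 31 and 36 bases before the annotated start. A TATA box on the sense strand between 40 and 20 bases before the start is found in 1.99% of all promoters. The Muc20 promoter holds a forkhead motif, read on the opposite strand, 248 bases before the start, at the edge of the window. None of the 5 motifs is in the Muc16 window, and the ETS motif is in none of the members' windows. Of the windows not printed, the first Muc13 promoter holds a STAT motif 140 bases and a p53 family motif 8 bases before the start. The Muc1, Muc4, Muc16 and Muc20 windows are 55.7%, 43.7%, 46.7% and 59.3% G or C, around the median of 52.67% over all promoters. These matches describe letters in a window and say nothing about which factors bind there.

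The neighbours of the members gave their own counts. Trim46, which lies 0.796 kb beyond the end of Muc1 on the opposite strand, had 19.6 CPM in p63-KO and 0.394 CPM in WT epithelial-like cells. Mtx1, 1.969 kb before Muc1, had 16.5 CPM in p63-KO and 19.8 CPM in WT. Of the p63-KO states, Trim46 was highest in the neuroendocrine-like state led by Pyy, at 56.5 CPM, where Muc1 had 11.0 CPM. In the unnamed state led by Hbb-bs, where Muc1 was highest at 327 CPM, Trim46 had 25.5 CPM. In the ionocyte-like state led by Tmprss11e, Trim46 had 3.89 CPM and Muc1 63.1 CPM. Ano3, the gene around Muc15, had 69 UMIs in p63-KO and 21 UMIs in WT.

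The layers of the WT epithelium were followed from basal-like (475 cells) through suprabasal squamous-like (511 cells) to superficial squamous-like cells (394 cells), each named from markers. The basal-like state, led by Zbtb16, Edaradd and Tenm2, held 8.84% of WT epithelial-like cells and met 3 of the 7 basal markers, the fewest that a name needed. Larger states led by Hs3st5 (1323 cells) and Krtdap (903 cells) met no marker set, so the named layers do not cover the whole WT epithelium. All 5 measured membrane-bound mucins were at least 2-fold higher in superficial squamous-like than in basal-like cells, beside 13.3% of all 11079 genes measured there. The median log2 ratio was 3.59 over the members and -0.49 over all genes. In suprabasal squamous-like over basal-like cells, 4 of 4 measured members were at least 2-fold higher, beside 11.3% of genes, with medians of 2.84 and -0.34. With coarser clustering the superficial over basal count was 4 in place of 5. From the suprabasal to the superficial layer 3 of 5 were at least 2-fold higher, beside 3.31% of genes, and 0 of 5 were at least 2-fold lower, beside 4.29%. The layers were clustered without any gene whose symbol starts with Muc, so the members did not define them, but the layers come from 1 library and have no replicate check.

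Muc16 and Muc20 were mostly a superficial signal in WT. Muc16 had 2.44 CPM (1.22 to 4.36) in basal-like, 20.9 CPM (18.1 to 24.1) in suprabasal squamous-like and 108 CPM (101 to 115) in superficial squamous-like cells. The superficial layer, 7.33% of WT epithelial-like cells and 12.9% of their UMIs, held 951 of the 1235 Muc16 UMIs, 77.0% (74.6 to 79.3). Muc20 had 1 UMI or 0.222 CPM in basal-like, 5.34 CPM (3.95 to 7.05) in suprabasal and 45.2 CPM (40.9 to 49.9) in superficial squamous-like cells. The superficial layer held 399 of its 483 UMIs, 82.6% (78.9 to 85.9). The superficial layer exceeded the suprabasal one 5.16-fold (4.41 to 6.05) for Muc16 and 8.48-fold (6.29 to 11.7) for Muc20.

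Muc4 gave counts in all 3 layers. Its levels were 21.7 CPM (17.6 to 26.5) in basal-like, 182 CPM (173 to 191) in suprabasal squamous-like and 273 CPM (262 to 284) in superficial squamous-like cells. The basal-like level did not differ beyond counting error from the 18.8 CPM (16.5 to 21.4) of the unnamed Hs3st5-led state, and whether it is expression or free RNA was not tested. The step from suprabasal to superficial was 1.50-fold (1.41 to 1.60), under the 2-fold used for a call. After thinning, 4.87% of basal-like, 33.3% of suprabasal and 42.2% of superficial squamous-like cells held Muc4. Muc1 was low throughout, with 1 UMI in basal-like, 16 UMIs or 1.74 CPM (0.996 to 2.83) in suprabasal and 70 UMIs or 7.94 CPM (6.19 to 10.0) in superficial squamous-like cells. The superficial layer held 56.5% (47.3 to 65.3) of its WT UMIs.

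Muc15 peaked a layer earlier than the others. It had 2 UMIs or 0.443 CPM in basal-like cells, 25.6 CPM (22.4 to 29.1) in suprabasal and 15.4 CPM (12.9 to 18.2) in superficial squamous-like cells. The superficial level was 1.66-fold lower (1.34 to 2.07) than the suprabasal one, outside counting error but under 2-fold. The unnamed WT state led by Krtdap, which also expresses Notch1 among its leading genes, had 12.6 CPM (10.6 to 14.9), within counting error of the superficial layer. The suprabasal layer held 44.3% and that unnamed state 26.2% of all WT Muc15 UMIs. Muc13 gave 0 UMIs in basal-like, 3 in suprabasal and 7 in superficial squamous-like cells.

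**Figure D2:**
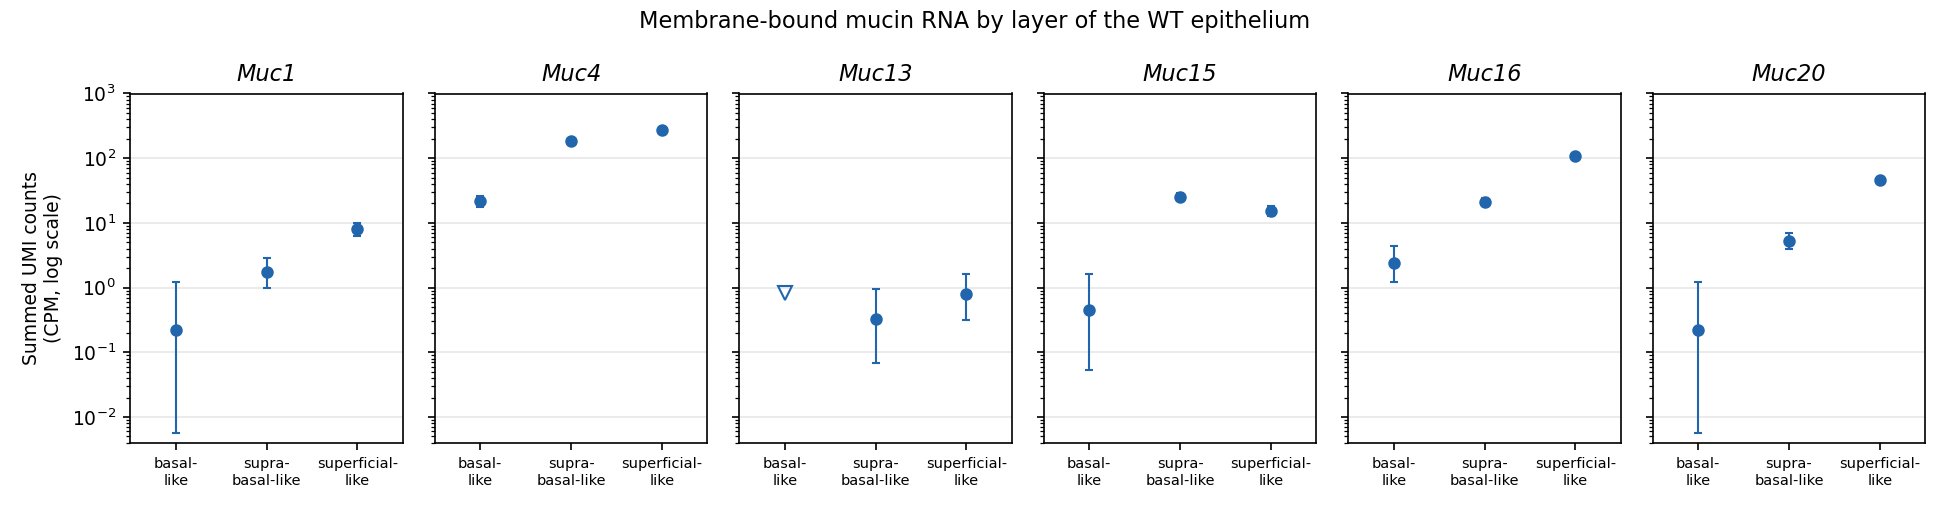
Summed UMI counts of each membrane-bound mucin (CPM, log axis) in basal-like, suprabasal squamous-like and superficial squamous-like cells of the WT library, with 95% Poisson intervals. The open triangle is the upper limit where no UMI was found. Muc16 and Muc20 have their highest point in the superficial layer (108 and 45.2 CPM), Muc15 in the suprabasal layer (25.6 CPM).

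Outside these layers the WT states differed. Muc4 was at 73.1 CPM (68.1 to 78.3) in the Krtdap-led state, which held 13.8% of all WT Muc4 UMIs, and at 61.5 CPM (49.6 to 75.3) in the Hba-a1-led state of 57 cells. In the unnamed states led by Hs3st5 and Slfn9 and the 2 proliferating-like states, Muc4 ranged from 15.8 to 18.8 CPM, and neighbours in that order did not differ beyond counting error. Muc16 and Muc20 reached at most 0.443 and 0.485 CPM in these 4 states. The 22 WT ciliated-like cells had the highest WT level of Muc4, 328 CPM (284 to 377), 1.20-fold (1.04 to 1.39) above the superficial layer. They also held Muc16 at 84.1 CPM (62.6 to 111), within counting error of the superficial layer, and Muc20 at 14.8 CPM (6.79 to 28.2). The Muc16 value came from 51 UMIs in 7 of the 22 cells.

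WT cells could be split by sex-linked RNA, which shows that both sexes, and so more than 1 embryo, were in each library. In WT, 3332 epithelial-like cells held Xist RNA alone and 1460 held Y-linked RNA alone. Muc16 was at 23.0 CPM (21.6 to 24.5) in the Xist cells and 7.91 CPM (6.63 to 9.35) in the Y-linked cells. Within the superficial layer it was at 128 CPM (119 to 137) in 273 Xist cells and 64.2 CPM (53.3 to 76.6) in 82 Y-linked cells, while Muc4 was at 268 and 288 CPM and Muc20 at 45.0 and 46.8 CPM. Within the suprabasal layer Muc16 was at 29.8 CPM (25.4 to 34.7) and 4.05 CPM (1.85 to 7.68). Sex and embryo cannot be told apart here. In p63-KO superficial squamous-like cells the order was the other way, with 692 CPM (664 to 721) in 103 Xist cells and 997 CPM (950 to 1045) in 70 Y-linked cells. Over all p63-KO epithelial-like cells, with 912 Xist and 395 Y-linked cells, Muc16 was at 576 CPM (568 to 584) and 527 CPM (513 to 541) and Muc1 at 211 and 249 CPM. Muc16 stayed at least 2-fold higher in p63-KO within each split, with log2 ratios of 4.58 in Xist cells and 5.89 in Y-linked cells.

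The p63-KO epithelial-like cells fell into 12 states. Unnamed states led by Hbb-bs (299 cells), St6galnac3 (206) and Plscr2 (117) met no marker set. The others were superficial squamous-like (202), proliferating-like (165, led by S100a9), mucous secretory-like (124), ciliated-like (55), 2 ionocyte-like states (98 cells led by Tmprss11e and 72 led by Dgki) and 3 neuroendocrine-like states (211 cells led by Car10, 81 led by Gzma and 50 led by Pyy). Median depth ranged from 13017.5 UMIs in the Pyy-led to 94884 UMIs in the Plscr2-led state. Xist and Y-linked RNA should not be held together by a cell of 1 embryo. At 1 UMI or more of each, the share of cells with both was 53.8% in the Plscr2-led, 38.9% in the Dgki-led and 38.2% in the ciliated-like state. At 5 UMIs or more of each it was 10.3%, 4.17% and 10.9%. These shares were not adjusted for depth. The part of such cells in the levels of these states was not tested beyond the values given beside them.

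Muc1 and Muc4 were spread over most p63-KO states at similar levels. Muc4 ranged from 317 CPM in the Dgki-led ionocyte-like state to 394 CPM in the ciliated-like state over 8 states, and of the 7 steps between neighbours in that order only the last, from proliferating-like (338 CPM) to Dgki-led (317 CPM), exceeded counting error, at 1.07-fold (1.004 to 1.13). It then dropped to 80.2 CPM in the Tmprss11e-led ionocyte-like state. Muc1 was highest in the Hbb-bs-led state, 327 CPM (314 to 339), 1.25-fold (1.18 to 1.32) above the Plscr2-led state at 262 CPM. The St6galnac3-led (248 CPM), superficial squamous-like (240 CPM) and mucous secretory-like (234 CPM) states followed, and neighbours among these 3 did not differ beyond counting error. Ciliated-like cells had 140 CPM of Muc1 (127 to 154), but 76.7 CPM without the 21 of 55 cells that held both Xist and Y-linked RNA.

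Muc16 varied more among the p63-KO states. It was highest in mucous secretory-like cells, which make the gel-forming mucin Muc5b and the trefoil peptide Tff2, at 1283 CPM (1257 to 1309). Next came the Plscr2-led state at 847 CPM (830 to 865) and the superficial squamous-like state at 787 CPM (766 to 809). These 3 differed from one another beyond counting error, the first 2 by 1.51-fold (1.47 to 1.56). The mucous secretory-like state, 7.38% of p63-KO epithelial-like cells and 9.95% of their UMIs, held 21.2% of all p63-KO Muc16 UMIs. Over the other p63-KO epithelial-like cells, mucous secretory-like cells had 2.44-fold more Muc16 (2.38 to 2.496), and Muc16 was the 1 of 4 measured members at least 2-fold higher there, beside 1.98% of all genes measured, while 0 of 4 were at least 2-fold lower, beside 6.37%. Muc1 (1.05-fold, 0.997 to 1.10), Muc4 (1.25-fold, 1.20 to 1.303) and Muc20 (1.21-fold, 1.04 to 1.40) were not at least 2-fold higher there.

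Muc20 had its own pattern, highest in ionocyte-like cells, which are rare, mitochondria-rich cells that carry proton pumps and the factor Foxi1. It reached 98.1 CPM (86.4 to 111) in the Tmprss11e-led state and 50.7 CPM (44.5 to 57.5) in the Dgki-led state, against 14.3 to 29.2 CPM in 8 of the other states and less in the Car10-led and Pyy-led ones. Ionocyte-like cells together had 67.2 CPM, against 19.8 CPM in the other p63-KO epithelial-like cells, a fold of 3.396 (3.06 to 3.77). It was the 1 of 4 measured members at least 2-fold higher there, beside 4.76% of genes, and Muc1 (0.681-fold, 0.641 to 0.723), Muc4 (0.706-fold, 0.672 to 0.742) and Muc16 (0.632-fold, 0.609 to 0.657) were below the others, 0 of them by 2-fold, beside 5.37% of genes. Thinned cells held Muc20 in 22.7% of the Tmprss11e-led and 16.7% of the Dgki-led state, against 3.44% of the Hbb-bs-led and 3.98% of the superficial squamous-like state.

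The 2 ionocyte-like states differed in the other mucins. The Dgki-led state had 209 CPM of Muc1, 317 CPM of Muc4 and 579 CPM of Muc16, and the Tmprss11e-led state 63.1, 80.2 and 50.6 CPM. The Dgki-led state was also the deeper, with a median of 68395 against 25134.5 UMIs, and had 38.9% against 16.3% of cells with both Xist and Y-linked RNA. Without those cells Muc16 was 467 CPM in the Dgki-led and 37.0 CPM in the Tmprss11e-led state. Smbd1, the next gene on the right of Muc20, 7.325 kb away on the same strand, was also concentrated in these states, at 222 CPM (Tmprss11e-led) and 58.4 CPM (Dgki-led). It had 49.7 CPM in the Gzma-led state and at most 5.69 CPM in any other p63-KO state, and 3 UMIs in all WT epithelial-like cells. Heg1, the gene before Muc13 on chromosome 16, had no such pattern and ranged from 9.89 CPM to 98.9 CPM over the p63-KO states.

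The neuroendocrine-like cells, named from markers of epithelial cells that make peptide hormones and chromogranins, held less of each measured member than the rest together. All 4 measured members were at least 2-fold lower in the 342 neuroendocrine-like cells than in the other p63-KO epithelial-like cells, beside 15.5% of all 12527 genes measured there. The median log2 ratio was -2.67 for the members and 0.16 for all genes. Muc16 had 29.8 CPM in neuroendocrine-like and 645 CPM in the other cells, 21.6-fold lower (18.47 to 25.5), and Muc4 29.2 and 345 CPM, 11.8-fold lower (10.1 to 14.0). Muc1 was 3.57-fold lower (3.21 to 3.99) and Muc20 3.51-fold lower (2.55 to 4.98). With the scored doublets kept, the count dropped to 2 of 4. A further subcluster of 41 cells (median 86233 UMIs, led by Acta2) then met the neuroendocrine markers. It had 211 CPM of Muc1, 314 CPM of Muc4, 721 CPM of Muc16 and 24.4 CPM of Muc20. Its part in that drop was not tested.

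The 3 neuroendocrine-like states were not alike. Of the 8 neuroendocrine markers, the Car10-led state met 7, the Gzma-led state 4 and the Pyy-led state 8. The Gzma-led state gave 137 of the 153 Muc16, 119 of the 150 Muc4 and 30 of the 38 Muc20 UMIs of neuroendocrine-like cells. The pooled folds above therefore mix unlike states. In the Pyy-led state, which also makes Sst, no Muc16 or Muc20 UMI was found among 637254 UMIs, which allows up to 5.79 CPM, and Muc1 and Muc4 gave 7 and 6 UMIs. In the Car10-led state Muc16 (5.32 CPM, 3.04 to 8.63) lay at or below the 10.6 CPM (8.14 to 13.7) of fibroblast-like cells, while Muc1, at 38.5 CPM (31.9 to 46.2), was above their 2.97 CPM. In the Gzma-led state Muc1 was 146 CPM (127 to 167), Muc4 79.9 CPM (66.2 to 95.7), Muc16 92.0 CPM (77.3 to 109) and Muc20 20.2 CPM (13.6 to 28.8). The Gzma-led Muc16 differed between cells split by sex-linked RNA, at 92.3 CPM in 51 cells with Xist RNA alone and 10.3 CPM in 21 cells with Y-linked RNA alone, and Muc4 likewise at 78.1 and 20.6 CPM. Without the Gzma-led state the count of lower members remained at 4.

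**Figure D3:**
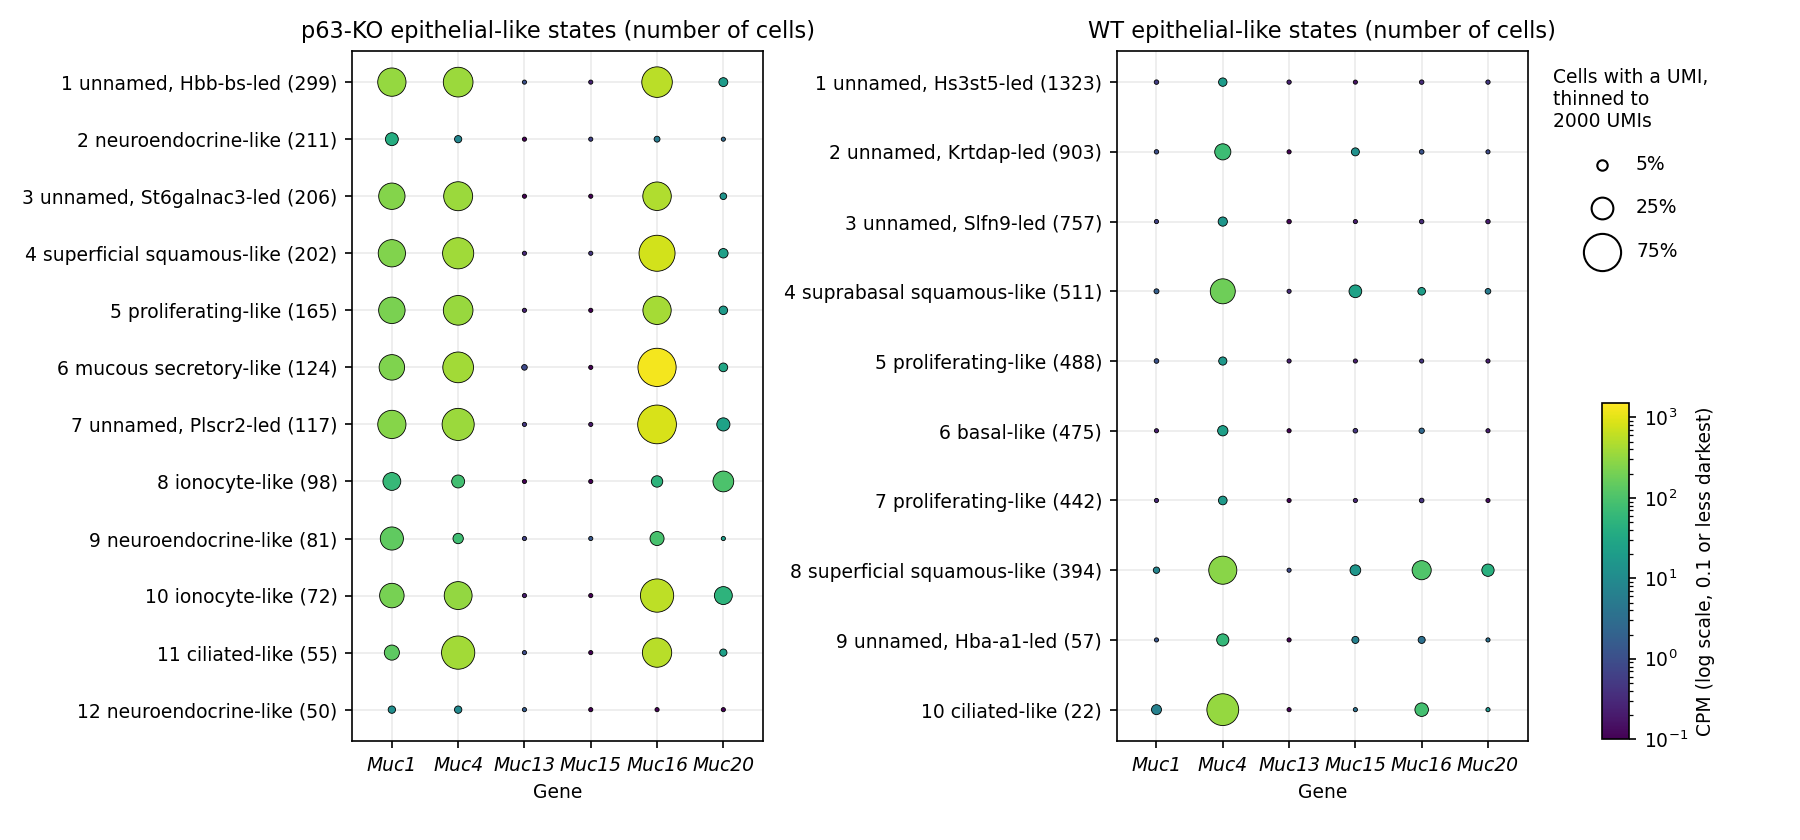
Membrane-bound mucins (columns) in the 12 p63-KO and 10 WT epithelial-like states (rows, with the number of cells). Colour is CPM on a log scale and area is the share of cells with a UMI after thinning to 2000 UMIs. Muc16 is highest in mucous secretory-like cells (1283 CPM), Muc20 in the Tmprss11e-led ionocyte-like state (98.1 CPM), and of the p63-KO states the Car10-led and Pyy-led neuroendocrine-like ones have the lowest Muc4, Muc16 and Muc20.

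Cells given the same name in both libraries were set side by side. Superficial squamous-like cells of p63-KO (202 cells, led by genes such as Krt13, Psca and Sprr3) met 4 naming markers and those of WT (394 cells) met 6, each against the other states of its own library. The 8 superficial squamous markers themselves summed to 118 CPM in the p63-KO state and 1784 CPM in the WT state. The p63-KO sum was the highest of the p63-KO states but close to the 101 CPM of WT basal-like cells. Summed suprabasal markers stood at 9118 CPM and 35838 CPM and columnar markers at 6315 CPM and 5456 CPM. The values below compare the states as named. Of 5 measured members, 2 exceeded the WT level by 2-fold or more (19.7% of genes) and 1 lay as far below it (8.25%). The median log2 ratio was 0.46 over the members and 0.30 over all genes. Muc1 had 240 CPM in p63-KO and 7.94 CPM in WT, a fold of 30.2 (23.8 to 39.0), and Muc16 had 787 and 108 CPM, a fold of 7.30 (6.81 to 7.83). Muc15 gave 3 UMIs in p63-KO and 136 in WT, a ratio of 0.0291 (0.00594 to 0.0870).

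Muc4 and Muc20, which were each over 3-fold higher in the summed cells, were not so in this state. Muc4 had 375 CPM (361 to 390) in p63-KO and 273 CPM (262 to 284) in WT superficial squamous-like cells, a fold of 1.38 (1.2997 to 1.45). Muc20 had 23.1 CPM (19.6 to 27.0) in p63-KO and 45.2 CPM (40.9 to 49.9) in WT, 1.96-fold lower (1.62 to 2.38). In ciliated-like cells (55 in p63-KO, 22 in WT) 2 of 4 measured members exceeded the WT level by 2-fold or more, beside 14.3% of genes. These were Muc1, at 140 and 6.60 CPM with a fold of 21.2 (8.23 to 78.2), and Muc16, at 529 and 84.1 CPM with a fold of 6.29 (4.76 to 8.48). Without the cells that held both Xist and Y-linked RNA, Muc1 was 76.7 CPM in p63-KO and 4.72 CPM in WT. Muc4 (1.20-fold, 1.03 to 1.40) and Muc20 (1.51-fold, 0.754 to 3.44) were not at least 2-fold higher in ciliated-like cells. Proliferating-like cells had 338 CPM of Muc4 and 412 CPM of Muc16 in p63-KO, against 16.6 and 17.2 CPM of Muc4 and 0.443 and 0.431 CPM of Muc16 in the 2 WT states of that name.

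Several members were found together in the same p63-KO cells. After thinning to 2000 UMIs, at least 2 members were found in 36.7% (34.4 to 39.1) of 1656 p63-KO epithelial-like cells and in 1.59% (1.27 to 1.97) of 5282 WT ones. Of 509 p63-KO fibroblast-like cells 0.196% (0.00497 to 1.09) did so. Such shares also rise with the share of cells that hold each gene, and how much follows from that was not tested. At full depth the shares were 80.7% in p63-KO and 12.04% in WT. In superficial squamous-like cells they were 55.7% (48.6 to 62.7) in p63-KO and 14.0% (10.7 to 17.8) in WT after thinning, and neuroendocrine-like p63-KO cells had 2.67% (1.23 to 5.01).

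Among thinned p63-KO cells, those with a Muc4 UMI held Muc16 in 57.5% (53.5 to 61.5), against 35.2% (32.3 to 38.2) of those without. Cells with a Muc16 UMI held Muc1 in 39.5% (35.9 to 43.2), against 25.1% (22.4 to 28.0) of those without. Cells with a Muc20 UMI held Muc16 in 48.0% (36.3 to 59.8), against 43.3% (40.9 to 45.8) of those without, intervals that overlap. Cells of all states enter these shares, so they follow in part from how the states differ.

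**Figure D4:**
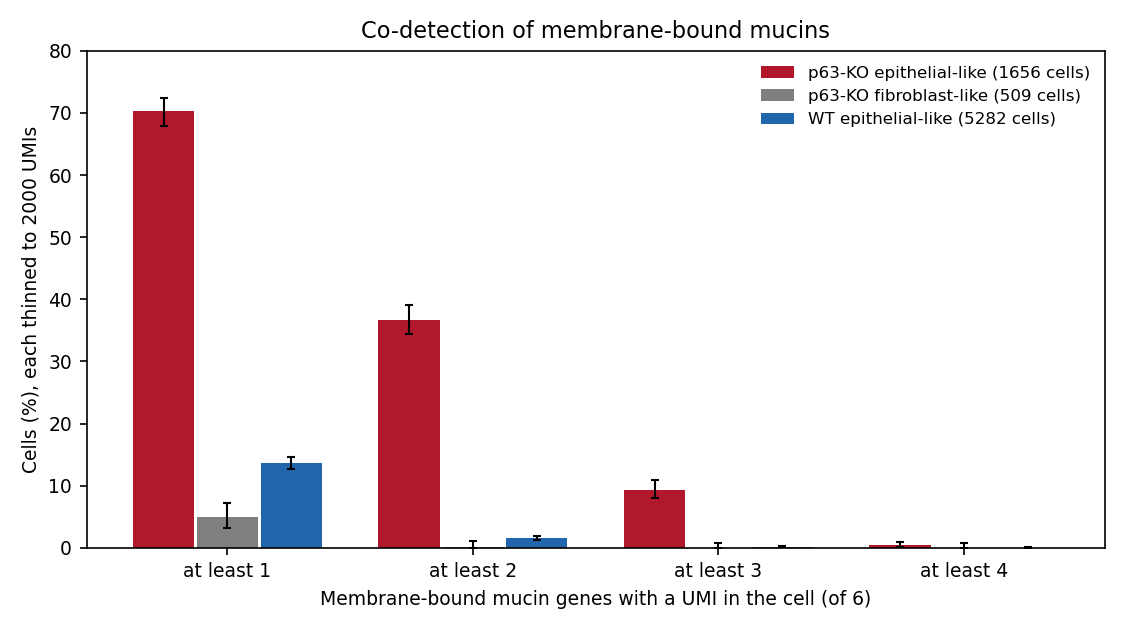
Share of cells (%) with at least 1, 2, 3 or 4 of the 6 membrane-bound mucins, each cell thinned to 2000 UMIs, in p63-KO epithelial-like (red), p63-KO fibroblast-like (grey) and WT epithelial-like (blue) cells, with exact 95% binomial intervals. At least 2 members were found in 36.7% of p63-KO and 1.59% of WT epithelial-like cells.

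Likeness between members was measured as Pearson's r of log2(CPM + 1) over the 12 p63-KO states, which share a library and differ in depth, and is given as a description. Muc1, Muc4 and Muc16 ran close together, with r of 0.92 for Muc1 and Muc4, 0.96 for Muc1 and Muc16 and 0.97 for Muc4 and Muc16. Muc20 was less like them, with r of 0.69 with Muc1, 0.71 with Muc4 and 0.75 with Muc16. Over the 10 WT states Muc20 was close to Muc16 (0.96) and Muc1 (0.95), and Muc15 was closest to Muc4 (0.83).

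Among 6339 other genes compared over the p63-KO states, Muc4 was most like Plagl1 (0.997), Ezr (0.994), the actin-linker ezrin of apical microvilli, and Tent5b (0.993). Muc16 was most like Stom (0.992), Tmem205 (0.990) and the forkhead factor Foxq1 (0.990), and Muc1 like Bag1 (0.987), Gas6 (0.986) and Fam71a (0.986). Muc20 was most like Wdr72 (0.987), the sodium-potassium-chloride transporter Slc12a2 (0.979) and Krt80 (0.978). Over all 22 states of both libraries and 7400 genes, r also takes in the difference between the libraries. Muc1, for example, had at most 7.94 CPM in any WT state and at least 11.0 CPM in any p63-KO state. Over these 22 states Muc1 was most like the long non-coding RNA Neat1, the secretory factor Creb3l1 and Spink4 (0.975, 0.975 and 0.973). Muc4 then came closest to Tent5b, Slc31a1 and Cd82 (0.990, 0.974 and 0.973), and Muc16 to Aox3, Pcolce and Gabrp (0.972, 0.969 and 0.968). Muc20 came closest to Slc12a2, Ckap4 and Fam3b (0.962, 0.961 and 0.943). Muc15 was instead most like the squamous genes Serpinb3a (0.962) and Tgm3 (0.940), a transglutaminase that crosslinks the cornified envelope, and Gid8 (0.949).

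Other mucins and the enzymes that glycosylate them were followed as lists, in the same summed epithelial-like cells. Of 11 counted genes in the list of other mucins and sialomucins, which also held the adhesion molecule Mcam, 4 were measured. In p63-KO 2 of them exceeded WT by 2-fold or more, beside 15.1% of all measured genes. The 1 that lay as far below it, beside 8.82%, was Mcam. Their median log2 ratio was 2.21. The gel-forming Muc5b stood at 132 CPM in p63-KO, against 2 UMIs in all of WT, a ratio of 4510 (1248 to 37244), and the gel-forming Muc19 had 12.4 CPM and 0.160 CPM, a fold of 77.5 (43.1 to 156). The sialomucin Cd164 had 137 and 73.6 CPM, a fold of 1.87 (1.80 to 1.93). The adhesion molecule Mcam was 12.5-fold lower in p63-KO, at 1.47 CPM against 18.46 CPM in WT.

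Of 27 genes of mucin-type O-glycosylation 21 were measured, and 12 of these exceeded WT by 2-fold or more in p63-KO and 0 lay as far below, beside 15.1% and 8.82% of all genes. Their median log2 ratio was 1.68, beside -0.03 over all genes. The initiating transferases Galnt5 (29.6 and 0.423 CPM, 70.1-fold, 48.6 to 105), Galnt6 (10.3 and 0.496 CPM, 20.9-fold, 14.8 to 30.3) and Galnt3 (84.1 and 10.4 CPM, 8.07-fold, 7.47 to 8.73) were among them. Galnt7, which extends partly glycosylated substrates, had 548 CPM in p63-KO and 101 CPM in WT, a fold of 5.41 (5.27 to 5.55). Fut2, which adds the fucose of secretor-type antigens, had 67.1 and 1.68 CPM, a fold of 40.0 (33.3 to 48.6). The 9 others measured lay within 2-fold.

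Receptors, galectins and linkers that bind these mucins were followed as well. Of 14 measured, 2 exceeded WT by 2-fold or more in p63-KO, 3 lay as far below and 9 between, beside 15.1% higher and 8.82% lower over all genes. Their median log2 ratio was 0.00. The receptor Egfr was 3.43-fold lower in p63-KO, at 67.4 CPM against 231 CPM in WT, and Lgals1 was 2.27-fold lower, at 15.9 against 36.1 CPM. Met, the receptor to which MUC20 binds, was 2.72-fold higher (2.598 to 2.84), at 104 CPM in p63-KO and 38.4 CPM in WT, and Erbb4 2.35-fold higher (2.06 to 2.68). Lgals3, a galectin that binds Muc1 and Muc16, had 523 and 264 CPM (1.98-fold, 1.94 to 2.01), and Ezr had 686 and 362 CPM (1.90-fold, 1.87 to 1.93).

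Of 10 sheddases and surface proteases, all measured, 5 exceeded WT by 2-fold or more in p63-KO and 0 lay as far below, beside 15.1% and 8.82% of all genes. The median log2 ratio was 0.96. Bace2 had 164 CPM in p63-KO and 33.3 CPM in WT (4.94-fold, 4.72 to 5.17), and Adam9, a metalloprotease known to shed human MUC1, had 50.6 and 15.3 CPM (3.31-fold, 3.09 to 3.55). The serine proteases Tmprss2 (82.2 and 31.9 CPM) and St14 (145 and 60.4 CPM) were 2.57-fold and 2.40-fold higher. Of 14 measured transcription factors of secretory and columnar cells 5 exceeded WT by 2-fold or more and 0 lay as far below, again beside 15.1% and 8.82%, and the median log2 ratio was 0.74. Creb3l1 had 527 and 1.91 CPM (276-fold, 233 to 330), the goblet cell factor Spdef 25.1 and 0.379 CPM (66.3-fold, 45.1 to 102) and Stat3 480 and 127 CPM (3.78-fold, 3.69 to 3.87). Foxa2 had 50.1 and 13.5 CPM (3.72-fold, 3.46 to 4.01), and Klf5 772 and 662 CPM (1.17-fold, 1.15 to 1.18).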

How the data were processed

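The authors deposited whole-number UMI counts per gene and barcode. Cell Ranger 7.1.0 and mm10 were used, per the submitters' processing notes; the 3' droplet kit is per the labels' protocols. The sources used here do not give the annotation release, cell calling, strand or intronic counting. Cells passed with 500 genes and 1000 UMIs or more and no more than 10% mitochondrial UMIs (2422 in p63-KO, 5787 in WT), and the highest doublet scores, at a rate of 0.8% per 1000 cells, were removed (47 and 268). Leiden clustering used 2000 variable genes without any Muc gene, at resolution 1 jointly and 0.6 within each library (leidenalg 0.10.2, scikit-learn 1.9.0, scipy 1.17.1). Names needed 3 or more of a type's markers, each in 25% of cells and, for states, 2-fold above the other states. Summed CPM had exact Poisson, conditional binomial and Clopper-Pearson intervals at 95%. Calls of 2-fold and printed folds used CPM alone, while log2 ratios, their medians and ranks used log2(CPM + 1). The computation was tested on simulated data. All members were named, with up to 4 measured genes per list of largest log2 ratio, any of 500 CPM or more, and the 3 genes most like each member. Members, lists and markers were chosen with earlier results of these data known, and naming thresholds were chosen after seeing the data. Settings were varied as the closing section gives.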

Additional observations from a re-analysis of the deposited data

How the results depend on the processing

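Without replicates, only counting error and processing could be examined. No paired analysis was possible because each genotype had 1 library. The 4 members at least 2-fold higher were 4 under each alternative tried, and the log2 ratios of the 5 measured members kept their sign and stayed past 2-fold in all 14 settings. Across them Muc1 ranged from 5.07 to 6.88, Muc4 from 1.68 to 2.09, Muc15 from -4.80 to -1.30, Muc16 from 4.58 to 5.89 and Muc20 from 1.299 to 2.45. With 20 CPM asked for, 0 members were lower, as Muc15 was then not measured, and the median log2 ratio was 3.45. The median was 1.86 with 5 CPM added or with a stricter cell filter, 2.23 when every cell weighed equally, 1.84 in cells with Epcam or Cdh1, 2.09 without ciliated-like, neuroendocrine-like and ionocyte-like states, 1.68 without proliferating-like states, 1.78 and 2.14 in cells with Xist or Y-linked RNA alone, and 2.45 after thinning. In cells under 40000 UMIs, an alternative chosen after seeing the data, it was 2.06. With coarser clustering, 4 members in place of 5 were higher in the WT superficial than basal layer. With doublets kept, 2 members in place of 4 were lower in neuroendocrine-like cells. The share of cells with at least 2 members depends on depth: it was 64.5% in p63-KO and 4.61% in WT at 5000 UMIs, 80.7% and 12.04% at full depth, and 7.13% and 0.0568% when 2 UMIs of a member were asked for. Scaling moved the median of all genes by under 0.1 on the log2 scale.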
